A study of Caenorhabditis elegans with 2 samples.

Results

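Of the 30000 genomic regions listed for an anti-GFP chromatin immunoprecipitation (ChIP-seq) of Caenorhabditis elegans, 513 lie in long and other noncoding RNA genes away from small RNA genes and protein-coding 5′ ends. Their summit, the position that the list gives as the peak of a region, is inside a gene annotated as ncRNA, lincRNA or antisense_RNA. Regions whose summit lay within 500 bp of a tRNA, snoRNA, snRNA or microRNA gene were left out, as were those from 1000 bp upstream to 200 bp downstream of a protein-coding 5′ end. Before these exclusions 919 summits lay in genes of the 3 biotypes. Of these, 174 were dropped for a small RNA gene nearby and 232 for a protein-coding 5′ end.

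Whole young adult worms aged 78 h, of mixed sex and synchronised by starvation of first-stage larvae after bleaching, were the source of both libraries, which are biological replicates of 1 group. The worms were strain OP208, with the alleles unc-119(ed3) III and wgIs208, and carried a GFP fusion of nhr-27, a nuclear hormone receptor gene. A note in the labels names NHR-270 as the tagged protein instead, so the identity of the fusion rests on the other labels. The tagged gene came from an insertion in 1 line, its promoter is not given in the sources used here, no untagged group was analysed here, and the control alignment was not analysed here.

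Noncoding RNA genes of the worm include the RNA parts of cellular machines, such as ribonuclease P, which trims the 5′ ends of tRNA precursors, and the signal recognition particle, which guides ribosomes to the endoplasmic reticulum. Others are long intergenic RNAs (symbols with linc-), RNAs antisense to protein-coding genes (symbols with anr-) and a large number of short transcripts with no known role. RNA polymerase III makes several of the machine RNAs and the tRNAs, while RNA polymerase II makes most long RNAs.

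Each list gives a signal per region on the authors' scale, whose unit is not stated, and ranks here run from 1 for the highest signal in the pooled list of both replicates. A second list holds the 393 regions that passed an irreproducible discovery rate (IDR) threshold, a measure of how alike regions rank in replicates. The lowest signal in that thresholded set was 92.1, and the region at pooled rank 395, with 92.0, was outside it. The set was thus nearly the same as the highest 393 of the pooled list by signal. Being past the threshold is therefore not a finding separate from pooled rank. Read counts are not in these lists, so the depth is unknown and the intervals given cover counting error over regions only. With 1 group there is no comparison between conditions and no test.

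Sequences are shown for some of the loci just above and just below the threshold. First come the genes of a pair of signal recognition particle RNA copies on chromosome III, 5′ to 3′ on the RNA strand. Capitals mark the bases at which the copies differ, which are T90C, G249A and G265A with the base of srpr-2.1 first and positions counted from the 5′ end of the gene. The srpr-2.1 gene is at chrIII:5211220-5211518 on the plus strand and srpr-2.2 at chrIII:5031410-5031708 on the minus strand of WBcel235 (ce11).
srpr-2.1: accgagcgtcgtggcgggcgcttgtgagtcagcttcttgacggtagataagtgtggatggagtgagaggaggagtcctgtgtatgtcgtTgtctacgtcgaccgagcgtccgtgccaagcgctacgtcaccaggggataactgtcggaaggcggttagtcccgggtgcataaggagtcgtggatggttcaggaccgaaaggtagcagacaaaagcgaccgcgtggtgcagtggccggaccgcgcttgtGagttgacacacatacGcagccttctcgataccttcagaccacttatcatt
srpr-2.2: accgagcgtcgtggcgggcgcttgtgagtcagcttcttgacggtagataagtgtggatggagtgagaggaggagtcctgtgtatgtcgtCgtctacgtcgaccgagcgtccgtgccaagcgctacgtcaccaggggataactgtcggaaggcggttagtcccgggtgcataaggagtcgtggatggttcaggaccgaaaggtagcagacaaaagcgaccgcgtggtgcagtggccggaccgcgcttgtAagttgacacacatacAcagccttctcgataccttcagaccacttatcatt

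Next are windows of 201 bp centred on the summits of the next loci past the threshold and of 3 below it, on the plus strand. They are shown as examples of loci close to the threshold on both sides. Capitals mark on either strand a run of GAGAGA, the E box word CACGTG, the GATA factor word TGATAA and the nuclear receptor word AGGTCA. K11D9.5 (rank 447), which lies nearer the threshold than linc-129 (rank 449), is not shown, and its window held none of these words. That every window shown holds a marked word thus depends on which loci were printed. The windows are chrX:6744015-6744215 for R03E9.10, chrV:1151359-1151559 for linc-128, chrIII:4649358-4649558 for T23F11.10, chrV:6222255-6222455 for W06H8.5, chrII:1246951-1247151 for F47F6.15 and chrIII:10818589-10818789 for linc-129.
R03E9.10: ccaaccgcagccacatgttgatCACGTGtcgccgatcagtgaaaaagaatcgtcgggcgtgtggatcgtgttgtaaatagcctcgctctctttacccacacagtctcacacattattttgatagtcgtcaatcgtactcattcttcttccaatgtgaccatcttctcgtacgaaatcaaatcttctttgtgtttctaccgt
linc-128: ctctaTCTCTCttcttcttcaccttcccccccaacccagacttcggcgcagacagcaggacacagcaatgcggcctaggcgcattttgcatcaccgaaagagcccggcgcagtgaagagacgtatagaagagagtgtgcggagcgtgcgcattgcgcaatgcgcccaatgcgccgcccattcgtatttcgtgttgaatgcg
T23F11.10: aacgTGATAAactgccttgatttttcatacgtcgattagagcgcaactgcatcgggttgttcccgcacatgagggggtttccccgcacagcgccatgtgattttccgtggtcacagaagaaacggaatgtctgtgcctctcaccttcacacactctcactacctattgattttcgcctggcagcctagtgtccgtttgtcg
W06H8.5: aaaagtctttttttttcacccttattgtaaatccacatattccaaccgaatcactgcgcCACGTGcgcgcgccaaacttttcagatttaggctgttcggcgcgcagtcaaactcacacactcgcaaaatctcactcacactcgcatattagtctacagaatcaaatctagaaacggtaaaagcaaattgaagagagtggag
F47F6.15: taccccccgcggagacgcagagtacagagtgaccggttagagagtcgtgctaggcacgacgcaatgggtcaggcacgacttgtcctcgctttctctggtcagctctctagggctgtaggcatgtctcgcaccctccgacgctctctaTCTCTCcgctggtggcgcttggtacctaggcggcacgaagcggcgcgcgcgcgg
linc-129: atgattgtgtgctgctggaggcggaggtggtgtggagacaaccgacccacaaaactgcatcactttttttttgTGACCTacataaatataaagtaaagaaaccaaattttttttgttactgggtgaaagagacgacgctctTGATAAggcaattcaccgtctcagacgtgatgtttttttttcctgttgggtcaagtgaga

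Few of the noncoding loci passed the threshold. Exactly 7 of the 513 regions overlapped a thresholded region by at least 1 bp, which is 1.36% (exact binomial 95% interval 0.550 to 2.79%), against 1.7% of the whole pooled list. As regions themselves in the thresholded set there were 6, or 1.17%, against 1.31% of the list. Both shares were near those of the list. Before the exclusions, 52 of the 919 regions in noncoding genes (5.66%) overlapped a thresholded one. Of the 52, 33 were among the 174 near small RNA genes (19.0%) and 12 among the 232 at protein-coding 5′ ends (5.17%). A share near that of the list thus holds only after the exclusions.

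The gene of the ribonuclease P RNA, rpr-1, held the highest region. Its signal was 131 in replicate 1 and 118 in replicate 2 (mean 124 ± 9.15, SD, n = 2), where it ranked 8 in both lists. In the pooled list it had 252.8 and rank 6, with a −log10 q of 2.59. The region spans chrI:13463768-13464157, its summit lies 8 bp into the 253 bp gene, and the gene sits on the opposite strand in an intron of ints-8, an Integrator complex subunit gene. GC content in the 201 bp at the summit was 59.7%.

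The second highest lay where the antisense gene anr-20 overlaps the ncRNA gene F16A11.7, inside an intron of ppfr-1, a gene for a regulatory subunit of a protein phosphatase. Replicate 1 gave a signal of 91.0 and replicate 2 gave 114 (mean 103 ± 16.4, SD, n = 2), and the pooled signal was 204.4 at rank 13. A neighbouring region in anr-20, with a pooled signal of 86.6 and rank 500, overlapped the same region of each replicate. It is the 1 region of the 7 that counts only through its thresholded neighbour. The summit window of the higher region had near-identical copies (at least 95% identity over at least 150 bp) at 7 other loci, on chromosomes II, III, IV, V and X. All 7 held a listed region, with best ranks of 1678 to 20429, and 0 of them overlapped a thresholded one. Reads from such copies could be placed at any of them, so the signal of anr-20 is uncertain.

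The remaining thresholded loci lay close together in signal. R03E9.10, a 334 bp ncRNA gene on chromosome X with no known role, had 59.4 in replicate 1 and 60.8 in replicate 2 (mean 60.1 ± 0.977, SD, n = 2), and 117.2 at rank 152 in the pooled list. The lincRNA gene linc-128 on chromosome V had 62.7 and 54.7 (mean 58.7 ± 5.69, SD, n = 2), with 111.6 at rank 184 when pooled. It was the 1 lincRNA gene past the threshold. T23F11.10, a 149 bp ncRNA gene on chromosome III, had 56.0 and 52.9 (mean 54.5 ± 2.16, SD, n = 2), and its pooled signal of 109.1 ranked 196. In each of these loci both replicates lay far below both of rpr-1.

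The lowest of them was srpr-2.1, a signal recognition particle RNA gene on chromosome III. Its signal was 50.6 in replicate 1 and 58.9 in replicate 2 (mean 54.8 ± 5.85, SD, n = 2), and the pooled value was 107.4 at rank 210. Its copy srpr-2.2, in klp-6, a kinesin gene, had 48.0 and 40.8 (mean 44.4 ± 5.06, SD, n = 2), with a pooled 88.2 at rank 463. That left srpr-2.2 below the threshold, although 296 of 299 bases of the genes printed above are identical (99.0%). The srpr genes were looked at as a family after these values had been seen. Of the 5 genes, srpr-1.2 held a region of signal 59.6 at rank 2729, and srpr-1.1, 98.3% identical to it, held no summit, though one of 61.9 lay within 500 bp. The region of srpr-1.2 had 32.5 in replicate 1 and 28.6 in replicate 2, and the one near srpr-1.1 had 18.2 and 55.4. In srpr-3, which is 81.7% to 82.5% identical to the others, no summit lay within 500 bp. The summit window of srpr-1.2 had near-identical copies at srpr-1.1, srpr-2.1 and srpr-2.2. Where copies are this close, reads from one could be counted at another. The order of the srpr-2 pair and the signal of srpr-1.2 are therefore uncertain.

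**Figure D1:**
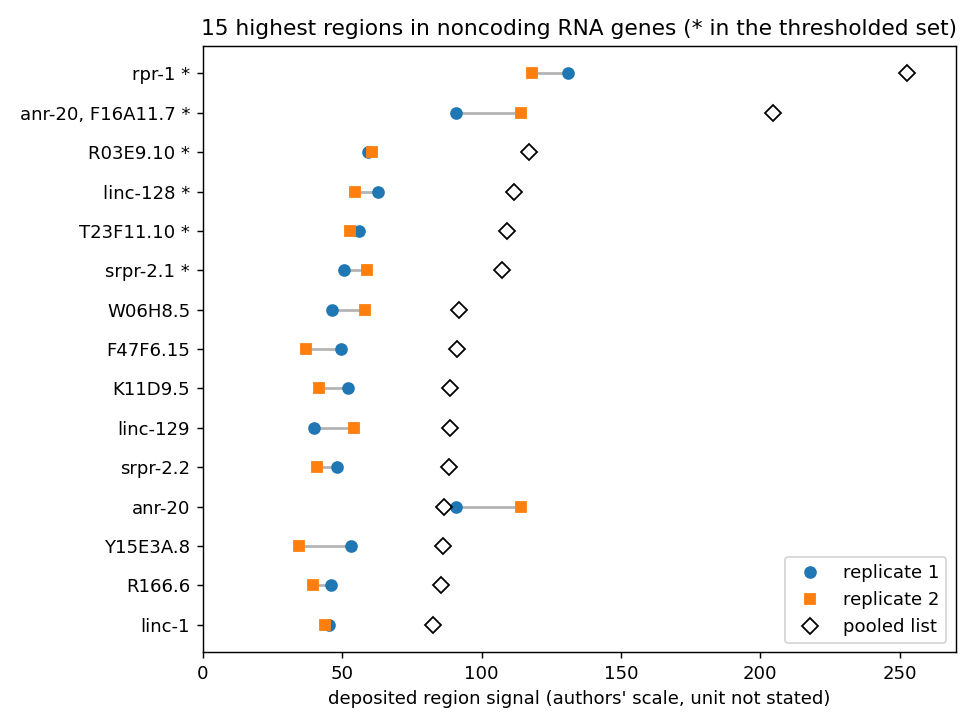
Deposited region signal (authors' scale) of the 15 highest regions in noncoding RNA genes, in replicate 1 (circles), replicate 2 (squares) and the pooled list (diamonds), with genes down the page by pooled rank and an asterisk for regions in the thresholded set. Both replicates of rpr-1 and anr-20 stand apart above 90, the other loci lie between 34.6 and 62.7 in each replicate, and the lower anr-20 entry repeats the replicate values of the higher one.

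Immediately below the threshold, W06H8.5 on chromosome V reached a pooled signal of 92.0 (rank 395), with 46.3 in replicate 1 and 58.2 in replicate 2. It overlaps an exon of the protein-coding gene W06H8.6 on the same strand. F47F6.15, a 143 bp gene in an intron of lin-42, the worm homologue of the clock gene period, had a pooled 91.1 (rank 412) from 49.5 and 36.9. K11D9.5, antisense to sca-1, the calcium pump gene of the sarcoplasmic reticulum, had 88.8 (rank 447) from 52.0 and 41.8. On the inner side of the threshold stood srpr-2.1 (107.4), T23F11.10 (109.1) and linc-128 (111.6). The −log10 q was 2.15 for srpr-2.1, 2.12 for T23F11.10 and 1.94 for W06H8.5.

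Further loci complete the 15 highest. The lincRNA gene linc-129 lies on chromosome III beside K11D9.5 and had 40.1 in replicate 1 and 54.1 in replicate 2, with a pooled 88.7. Y15E3A.8 on chromosome X had 53.3 and 34.6, R166.6 in an exon of the kinase gene mnk-1 had 45.9 and 39.6, and linc-1 on chromosome I had 45.1 and 43.8. The pooled signals ran from 86.3 for Y15E3A.8 to 82.7 for linc-1, at ranks 514 to 606. The replicates lay far apart for Y15E3A.8 (mean 44.0 ± 13.2, SD, n = 2) and close together for linc-1 (44.5 ± 0.942).

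Taken over all 513, the loci named above included, the signal of noncoding regions was close to that of the list. The median pooled signal was 40.2 (quartiles 33.7 and 49.8) in noncoding genes, against 38.1 in the whole list. Regions near tRNA, snoRNA or snRNA genes had a median of 53.3 (n = 810), those in introns 37.3 (n = 6113) and those between genes 37.4 (n = 4359), both of the last kinds taken away from RNA genes and 5′ ends. Of the noncoding regions 71 were among the highest 3000, or 13.8% against 10% of the list, and 19 among the highest 1000, or 3.70% against 3.33%. At or above rank 15000 lay 56.7% of the noncoding regions, against 50% of the list, and 222 lay past that rank. The thresholded share was 20.1% near small RNA genes, 0.638% in introns and 1.72% between genes.

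**Figure D2:**
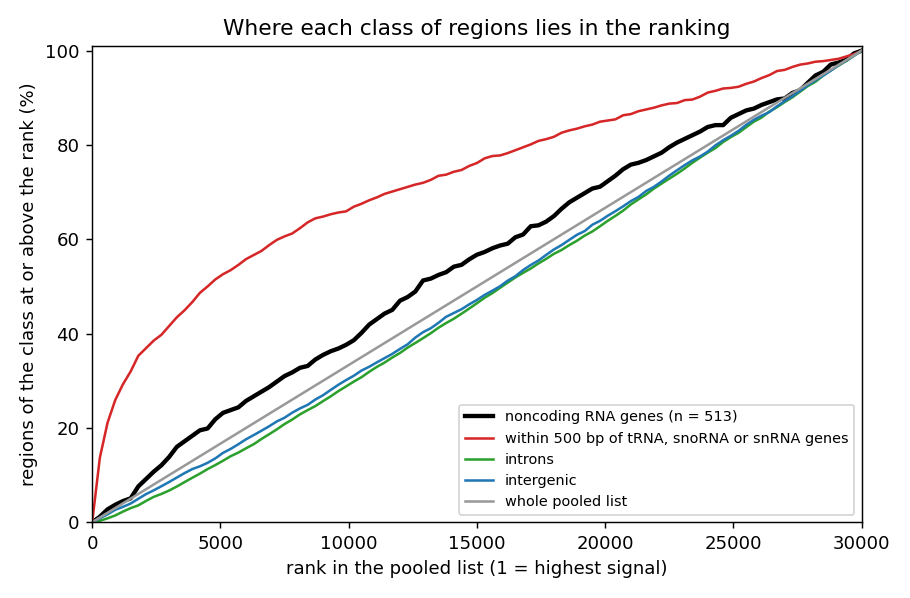
Share of each class of regions (percent, vertical axis) at or above each rank in the pooled list (horizontal axis, 1 is the highest signal). The curve of noncoding RNA genes (black) runs a little above that of the whole list and of introns and intergenic regions, and far below that of regions near tRNA, snoRNA and snRNA genes: 13.8% of noncoding regions, 41.6% of regions near small RNA genes and 10% of the list are within the highest 3000.

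The regions fell in 555 of 8058 annotated genes of the 3 biotypes, or 6.89%. Of these genes 529 held a single region, and 80 regions lay in 2 overlapping genes and 3 in 3. By biotype, 44 of 194 lincRNA genes (22.7%) and 22 of 100 antisense_RNA genes (22%) held a region, against 489 of 7764 ncRNA genes (6.30%). Gene length goes with this order, at medians of 761 bp for lincRNA, 689 bp for antisense_RNA and 140 bp for ncRNA genes. The part of length in these shares was not tested. The lincRNA regions had the lowest median signal, 36.4 (n = 58), against 40.4 in both antisense_RNA (n = 29) and ncRNA (n = 426).

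**Figure D3:**
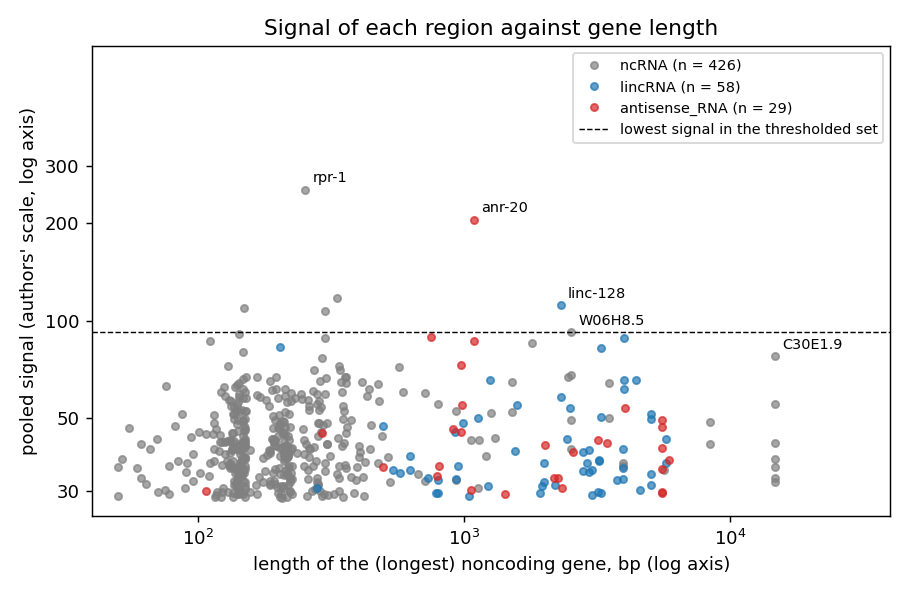
Pooled signal of each of the 513 regions (vertical log axis, authors' scale) against the length of the longest noncoding gene it lies in (horizontal log axis, bp), coloured by biotype, with the lowest signal of the thresholded set dashed. Most ncRNA regions are in genes under 500 bp, and the few points above the line occur from 149 bp (T23F11.10) to 2302 bp (linc-128).

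The genes with the most regions were long and their regions mostly weak. C30E1.9, a 14770 bp ncRNA gene on chromosome X, held 7 regions with pooled signals of 32.0 to 77.7, and anr-35 held 6 with 29.5 to 49.6. W06H8.5 held 4, from 40.2 to 92.0, and the overlapping genes linc-110 and linc-133 shared 4, from 31.2 to 51.4. None of the regions in these 5 genes overlapped a thresholded one, and C30E1.9 held 0.474 regions per kb. In genes under 200 bp 1 of 219 regions overlapped a thresholded one, in those from 200 to under 500 bp 3 of 175, and in longer ones 3 of 119. In the whole list the share was 1.7%. The 3 in longer genes were linc-128 and the 2 overlapping regions of anr-20, so these counts are too small to show a trend with length.

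Of the long intergenic RNAs with a linc- symbol, 40 of 170 held a region. The 5 highest were linc-128, linc-129, linc-1, linc-91 (82.3, rank 622) and linc-163 (65.8, rank 1715). Among these 5 the replicates lay farthest apart for linc-163, with 41.7 in replicate 1 and 21.9 in replicate 2. Of antisense genes with an anr- symbol, 12 of 57 held a region. After anr-20 these were anr-57 (54.9, listed only in replicate 2), anr-49 (53.7), anr-35 (49.6) and anr-28 (46.4, listed only in replicate 1). A signal listed in 1 replicate only has no spread.

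Of the RNAs of known machines and functions, mrpr-1, the RNA of ribonuclease MRP, had a region of similar signal to R03E9.10. It had 57.6 in replicate 1 and 62.7 in replicate 2 (mean 60.1 ± 3.62, SD, n = 2) and a pooled 117.6 at rank 149, and it is past the threshold, but its summit is in the window of a protein-coding 5′ end, so it is not among the 513. For yrn-1, the Y RNA that binds the Ro protein, no listed summit lay in the gene or within 500 bp. For rncs-1, an RNA that binds Dicer, 0 summits lay inside the gene, and 2 lay within 500 bp of it. The nearby region with a pooled signal of 43.3 at rank 9908 overlapped regions of 44.4 in replicate 1 and 63.1 in replicate 2, and it overlapped a thresholded region. Its pooled signal is below the lowest of the thresholded set, so it is not itself in that set. The replicate values can therefore belong to the thresholded neighbour. The other nearby region of rncs-1, with a pooled 65.2 at rank 1785, had 40.1 in replicate 1 and 27.8 in replicate 2 and overlapped none.

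The long RNA tts-1, which associates with ribosomes in long-lived worms, held regions at 59.7 (rank 2705) and 32.1 (rank 23361), which overlapped the same region of each replicate, with 32.3 in replicate 1 and 50.3 in replicate 2. The related tts-2 had 48.7 at rank 6481 but lay at a protein-coding 5′ end and is not among the 513. lep-5, an RNA of the timing of adult development, held 1 region of 32.6 at rank 22499, found only in replicate 2 at 27.8. None of the tts or lep-5 regions was past the threshold.

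Reproducibility was close to that of the list. In replicate 1's own list 389 of the 513 overlapped a region, in replicate 2's 368, in both 274 (53.4%, against 47.8% of the list) and in neither 30. Over those in both, Spearman's rho between replicates was 0.244 (n = 274), against 0.275 in the list (n = 14332), given as a description, since all points share the same 2 libraries. Signals were within 1.5-fold of each other for 72.3%, against 74.2% in the list. Exactly 6 of the 513 (1.17%) had their overlapping region in the top 393 of replicate 1 and of replicate 2, against 218 (0.727%) of the list. Since the anr-20 pair shares its replicate regions, these 6 rest on 5 distinct ones, and the 218 on 169. The region in F48C1.15 and F48C1.13, inside the chromatin remodelling gene let-526, was picked after its values were seen and had 64.8 in replicate 1 and 16.4 in replicate 2.

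Applying the same rule to each replicate alone gave 490 regions in replicate 1 and 481 in replicate 2. Of these, 8 (1.63%) and 11 (2.29%) were among the highest 393 of their list, against 1.31% of each list. The genes rpr-1, anr-20, linc-128, R03E9.10 and W06H8.5 were in both sets. For W06H8.5 these were different regions of the gene: the one that ranked 280 in replicate 1 ranked 490 in replicate 2, and the one that ranked 215 in replicate 2 ranked 661 in replicate 1.

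Chromosome X held 174 of the 513 regions, or 33.9% (exact binomial 95% interval 29.8 to 38.2%), against 18.2% of the whole list. Of the noncoding genes, 31.8% are on X. The X share was 28.6% near tRNA, snoRNA or snRNA genes, 24.0% between genes and 18.4% in introns. In the noncoding regions left out by the distance rules it was 37.9% near small RNA genes and 33.2% at protein-coding 5′ ends. A high X share is thus not particular to the 513. By sequence that could hold a region, namely noncoding gene bases outside the excluded distances, the density was 621 regions per Mb on X and 486 on the autosomes together. Elsewhere under the same distance rules it was 284 and 280. Over all chromosomes the noncoding genes had 525 regions per Mb, against 281 elsewhere, a ratio of 1.87. With the rule applied to single replicates the X share was 34.9% in replicate 1 and 32.8% in replicate 2. Of the 7 thresholded regions, 1 was on X, 3 on I, 2 on III and 1 on V.

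**Figure D4:**
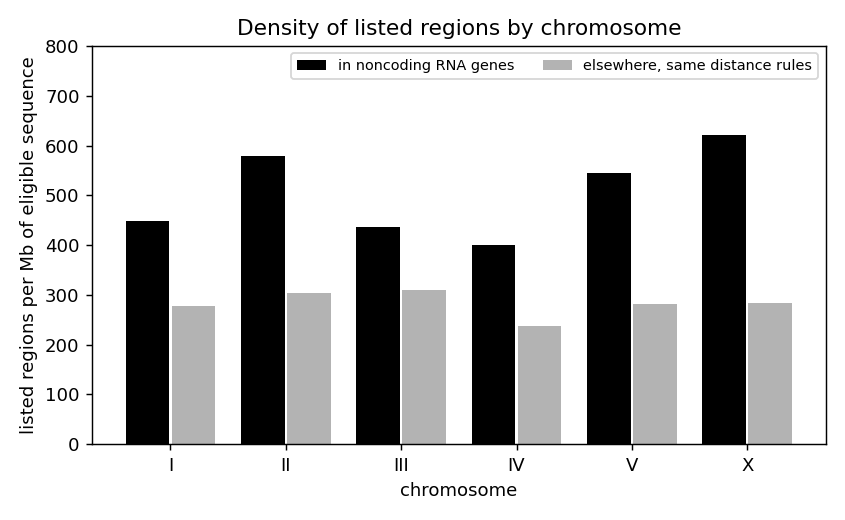
Listed regions per Mb of sequence that passes the distance rules, by chromosome, inside noncoding RNA genes (black) and elsewhere (grey). The noncoding bars are higher on all 6 chromosomes, from 400 per Mb on IV to 621 on X, while the grey ones run from 238 to 309.

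Inside protein-coding genes lay 208 of the 513 summits, or 40.5%, against 70.4% of the list. In the noncoding regions left out by the distance rules it was 53.4% near small RNA genes and 32.8% at protein-coding 5′ ends. A share below that of the list is thus not particular to the 513. In the 208, the noncoding gene was on the opposite strand for 142 (68.3%), on the same strand for 40 and on both for 26. No share over all annotated genes is given beside these strand counts. Of the 208, 163 were in introns of the host, and 35 in coding exons. Summits covered by noncoding genes of both strands made up 80 (15.6%). Signal was alike inside and outside, with medians of 40.3 within protein-coding genes and 40.1 away from them, and 3 and 4 of the thresholded regions. In genes of at least 500 bp the summits were spread over the gene, with a median position at 51.8% of its length, 28 of 119 in the first 20% and 22 in the last 20%.

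GC content was higher at the summits of noncoding regions than beside them. It averaged 44.3% in the 201 bp at the summit and 35.3% in windows 400 bp to each side. In the list it was 41.0% and 36.1%, a difference of 4.93 points. Noncoding regions left out by the distance rules had 46.6% at the summit and 35.5% beside it at protein-coding 5′ ends, and 45.1% and 35.4% near small RNA genes. By biotype it was 45.2% for ncRNA, 40.2% for lincRNA and 40.7% for antisense_RNA regions. Genes of the 3 biotypes with a region averaged 45.2% at their centre (n = 542), and those with no listed summit 40.6% (n = 4675). The part of base composition in where regions are listed was not tested.

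**Figure D5:**
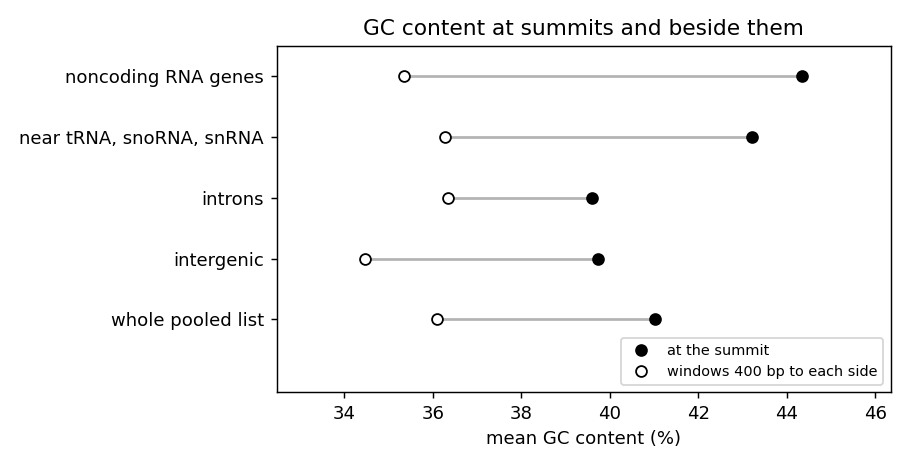
Mean GC content (percent) in the 201 bp at the summit (filled) and in windows 400 bp to each side (open), by class of region. Among the classes drawn, noncoding RNA genes show the widest gap, 44.3% at the summit and 35.3% beside it, and introns the narrowest.

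Of 12 words looked for on either strand within 100 bp of the summit, GAGAGA was in 23.8% of the noncoding windows, against 15.1% of all listed windows of that length, and in 13.5% of the noncoding flanks. Near tRNA, snoRNA or snRNA genes it was in 20.1%. Of the 15 highest loci, rpr-1, anr-20 (the higher region), linc-128, F47F6.15 and Y15E3A.8 held it. CACGCG was in 7.21%, against 9.63% near tRNA, snoRNA or snRNA genes, 3.71% of the list and 2.24% of the noncoding flanks. The nuclear receptor word AGGTCA was in 5.85% of noncoding windows, 5.57% of the list and 5.46% of the noncoding flanks, so near its flank level. Of the 15 highest loci, linc-129 held it, as printed above. The word AGTTCA was in 6.43% of noncoding windows and 14.5% of the noncoding flanks, against 11.8% of the list and 13.3% of the list flanks. CACGTG, marked in some windows above, was in 3.51% of noncoding windows, 4.94% of the list and 2.53% of the noncoding flanks.

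The tRNA-type promoter words were rare. GTTCNANNC, a form of the B box of tRNA genes, was in 6.43% of noncoding windows, against 43.8% near tRNA, snoRNA or snRNA genes and 9.23% of the list. CGAACC was in 4.48%, against 31.1% and 5.18%. The A box was found in 1 noncoding window, or 0.195%, against 0.437% of the list. The B box word was in the window of K11D9.5 and in none of the thresholded noncoding windows, which says only that these letters are not in the windows. TTTCAG, as at splice acceptors, was in 18.7% against 30.2% of the list, TATAAA in 10.9% against 14.5%, and TGATAA in 9.94% against 14.3%. In the noncoding flanks these were in 28.0%, 21.9% and 17.4%, and in the list flanks in 35.5%, 21.0% and 18.2%. Over the whole list, too, each of these words was thus less frequent at summits than in flanks. For TTTCAG the share was alike near tRNA, snoRNA or snRNA genes (18.6%), and it was 23.1% between genes and 32.9% in introns.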

How the data were processed

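The authors deposited region lists on assembly ce11 (WBcel235), 1 for each replicate, 1 pooled and 1 thresholded by IDR. Each deposited region has a signal value, whose scale is not stated, and a −log10 q value. The sources used here do not name the aligner, peak caller or IDR threshold, so these are not stated. The per-replicate values are from regions that overlap the pooled one, so neighbouring pooled regions can share a value.

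Biotypes and 5′ ends came from Ensembl release 115 and sequences from the RefSeq genome of WBcel235. The files hold no counts, so no test of reads was possible. Regions are not replicates, and values are described beside the whole list and 3 classes, with exact binomial intervals at 95%. Windows were 201 bp. Copies were found with blastn 2.17.0, and the steps were run in Python 3.11.15 with pandas 2.3.3 and scipy 1.17.1 and checked on simulated data. Regions could overlap: the 513 form 495 separate loci.

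The members and lists were chosen with earlier results of these data known. Genes were named by a rule: regions overlapping a thresholded one, the 15 highest, the 3 nearest the threshold on each side, the 5 genes with the most regions, and listed RNAs of known machines and the 5 highest linc- and anr- genes.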

Additional observations from a re-analysis of the deposited data

How the results depend on the processing

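The 513 regions became 374 to 745 as the promoter window was widened, narrowed or dropped, and 501 to 541 with other distances to small RNA genes. With lincRNA and antisense_RNA genes only, 87 regions were left, with 3.45% thresholded, 25.3% inside protein-coding genes and 40.4% GC. That 3.45%, against 1.7% of the list, is 3 regions: linc-128 and the 2 of anr-20, which share their replicate regions. The lower one of anr-20 counts only through its neighbour. Otherwise the thresholded share ran from 0.992% (near-identical copies left out) to 2.55% (promoter regions kept, which lets in mrpr-1). Mean GC was 44.6% with a narrower promoter window, 43.9% with a wider one, 45.1% with promoter regions kept, 45.2% with ncRNA genes only and 44.3% without copies. The cause of these shifts was not tested. With either replicate alone the count was 481 to 490, the thresholded share 1.63 to 2.29% (highest 393 of that list), the share inside protein-coding genes 40.7 to 42.7%, the mean GC 44.0 to 44.0%, and the median signal 22.2 to 22.6 on the scale of a single library. Leaving out copies and counting only regions themselves in the thresholded set (1.17%) were added after seeing the data. No paired analysis was possible because there is 1 group. Depth is unknown, so no error from read counts can be given for a signal.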

Other observations

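Near-identical copies of the summit window were found for 9 of the 513 noncoding regions, or 1.75%, against 1.26% of the whole list, and for 2 of the 7 thresholded ones. Of the copies of the T23E1.7 window, 61 in number, 4 held a listed region. The region of T23E1.7 itself ranked 29681. Y53F4B.45 had 1 copy with a listed region, while the copies of M70.11, M04F3.7 and F21H12.8 held 0. These genes were picked after their values were seen, for having copies.

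The word GAGAGA was in 32.4% of the windows of noncoding regions among the highest 3000 of the list, which is 23 regions, against 21.7% of all windows among those 3000. Over all 513 it was 23.8%. GAGAGA was in 19.4% of intergenic and 13.1% of intron windows.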
